A study of Mus musculus with 6 samples.

Results

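The elastic fiber and microfibril genes are 10 genes, *Eln*, *Fbn1*, *Fbn2*, *Fbln1*, *Fbln2*, *Fbln5*, *Emilin1*, *Mfap2*, *Mfap4* and *Mfap5*, taken by symbol from the 34745 genes of the deposited RNA-seq table. All 10 were listed, and all 10 were among the 14084 genes that passed the filter on low counts. The experiment compared cardiac fibroblasts from the left ventricle of KDM5B-knockout (KO) mice and littermate wild-type (WT) mice, with 3 libraries labelled KO and 3 labelled WT. All the mice were males on a C57BL/6 background, 8 to 10 weeks old, and all had the left anterior descending artery tied off for good, so both groups carry a myocardial infarction (MI), and cells were taken on Day 7. The knockout is a constitutive CRISPR/Cas9 deletion around the JmjC domain of *Kdm5b*, a histone demethylase gene, so it is not limited to fibroblasts, and no sham-operated library is part of the comparison. The labels do not say whether the libraries of a group came from separate mice, so the p-values measure only the spread between these libraries.

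Elastic fibers give tissues recoil. Their core is elastin, which is secreted as soluble tropoelastin, placed on a scaffold of fibrillin microfibrils and cross-linked by lysyl oxidases. Fibulins, EMILIN-1 and the microfibril-associated glycoproteins sit at the border between core and microfibril, and fibrillin microfibrils also hold latent TGF-β in the matrix. In the infarcted heart, scar fibroblasts deposit these proteins together with collagen.

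The elastic fiber genes were lower in the KO-labelled libraries. By edgeR's quasi-likelihood test, 7 of the 10 genes fell at an adjusted p under 0.05, and 0 rose, where 12.5% of all genes tested were lower and 17.7% higher by the same rule. DESeq2 and limma on log2(FPKM + 1) likewise called 7 of the 10 lower and 0 higher, where they called 10.1% and 9.99% of all genes lower and 16.1% and 18.7% higher. All 10 fitted values were below 0, as were 52.3% of all genes tested, so 0 were higher at an unadjusted p under 0.05 too. The 7 were the core gene *Eln*, the fibrillin gene *Fbn1*, the fibulin genes *Fbln1*, *Fbln2* and *Fbln5*, *Emilin1* and *Mfap4*. *Fbn2*, *Mfap2* and *Mfap5* had fitted values below 0 that did not pass. The median log2 fold change over the 10 was -0.42, which is 74.7% of the level in the WT-labelled libraries, beside a median of -0.02 over all genes tested, and the 10 values lay between -0.51 and -0.27. Fitted values within that range were found for 14.3% of all genes tested. A list of fibroblast marker genes had a median of -0.41, and with the libraries scaled on those markers 0 of the 10 genes passed in either direction, where 0.305% of all genes were called lower and 60.1% higher.

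The libraries held between 12025403 and 15329427 counts on genes. *Kdm5b* (ENSMUSG00000042207, chromosome 1 from 134560171 to 134635285, mm10) was read as a check of the labels, with counts per gene that do not give the deleted part on its own. It had 98.1, 107 and 105 CPM (the count relative to library size, after TMM normalization) in the KO-labelled libraries against 108, 129 and 123 (log2 fold change -0.22, standard error 0.07, adjusted p = 0.0574 from edgeR). *Kdm5b* did not pass the threshold here, although it did without WT replicate 1 (-0.29, adjusted p = 0.0188), and the groups are therefore called KO-labelled and WT-labelled. By Q-PCR, the paper reports hardly any *Kdm5b* mRNA in cardiac fibroblasts of the knockout mice. The KO-labelled libraries held 1198, 1424 and 1628 counts on the whole gene, a fitted fall of 13.9%. All 16 fibroblast marker genes were tested, and their summed level was 27502 to 31732 CPM by library totals in the KO-labelled libraries and 37483 to 39750 in the WT-labelled ones. The collagen genes *Col1a1*, *Col1a2* and *Col3a1* made up 88.4% to 89.7% of that sum, while *Tcf21* was at 37.5 to 60.7 CPM, *Fap* at 1.87 to 3.13 CPM and *Pi16* at 0.84 to 2.95 CPM. The libraries also held transcripts of other cell types, which are set out beside the results below.

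Reference promoter sequence was available for 6 of the 10 genes, with 9 start sites in all (RefSeq, GRCm38.p6, the 250 bases before each start site). The 2 genes with the largest fitted falls, *Fbln5* and *Fbln1*, and *Mfap2*, a gene whose groups overlapped, are shown to set side by side the sequence in front of genes that were called lower and of one that was not. For each the start site farthest upstream was taken, and the sequence reads 5′ to 3′ on the gene's strand. Capitals mark a GC box (GGGCGG or its complement) in *Fbln5* and a SMAD box (CAGAC or its complement) in *Fbln1* and *Mfap2*. *Fbln5* lies at chr12:101819120-101819369 on the minus strand, *Fbln1* at chr15:85205699-85205948 on the plus strand and *Mfap2* at chr4:141010174-141010423 on the plus strand.
Fbln5: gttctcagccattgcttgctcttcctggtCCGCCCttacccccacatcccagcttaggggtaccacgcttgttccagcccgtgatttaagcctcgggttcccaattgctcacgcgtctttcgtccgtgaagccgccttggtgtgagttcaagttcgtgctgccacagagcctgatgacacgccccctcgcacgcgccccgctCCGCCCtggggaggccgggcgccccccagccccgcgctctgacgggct
Fbln1: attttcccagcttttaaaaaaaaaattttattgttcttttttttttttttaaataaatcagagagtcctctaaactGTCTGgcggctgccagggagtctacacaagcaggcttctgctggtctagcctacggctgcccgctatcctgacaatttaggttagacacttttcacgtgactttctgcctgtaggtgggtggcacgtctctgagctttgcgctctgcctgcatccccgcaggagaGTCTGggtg
Mfap2: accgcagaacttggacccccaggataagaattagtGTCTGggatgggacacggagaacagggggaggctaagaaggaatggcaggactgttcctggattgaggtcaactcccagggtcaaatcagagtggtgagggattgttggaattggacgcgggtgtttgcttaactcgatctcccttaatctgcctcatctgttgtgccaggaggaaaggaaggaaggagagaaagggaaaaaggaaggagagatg

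Across the 9 start sites, 5 had a GC box within the 250 bases and 5 had a SMAD box, where 32.7% and 42.2% of all 32851 reference promoters of that length hold one. Both *Fbln1* windows are in these counts, and they overlap by 191 bases and hold the same 2 SMAD boxes. The AP-1 motif (TGANTCA), the CRE motif (TGACGTCA) and the TATA box (TATAAA), each searched on both strands, had 0 matches in the 9 sequences, where 6.75%, 1.55% and 12.4% of all promoters hold them. The 3 sequences shown differ in composition, with a GC content of 65.2% for *Fbln5*, 46.4% for *Fbln1* and 51.2% for *Mfap2*, beside a median of 52.4% over all promoters. The other start site of each had 49.6%, 62.4% and 68.8%, so the order of the genes changes with the site chosen. At that other site *Fbln5* held SMAD boxes and no GC box, while *Fbln1* and *Mfap2* held GC boxes.

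Compared per length, as FPKM, the genes fell into 3 tiers that were the same in both groups. *Fbln2* was the most abundant, with 333 ± 7.15 FPKM (SD, n = 3) in the WT-labelled libraries, followed by *Fbn1* with 202 ± 8.66 and *Eln* with 173 ± 2.35. A middle tier held *Mfap4* (84.2 ± 3.88), *Fbln5* (51.8 ± 1.58) and *Emilin1* (28.5 ± 1.34). The low tier held *Mfap2* (7.64 ± 1.21), *Fbln1* (6.99 ± 0.34), *Mfap5* (6.26 ± 0.32) and *Fbn2* (4.78 ± 0.76). Within the WT-labelled libraries, *Mfap2* and *Fbln1* overlapped, and each other gene was separate from its neighbour in the order. In the KO-labelled libraries the upper 6 ranks were the same, with 255 ± 15.4 FPKM for *Fbln2* and 133 ± 7.36 for *Eln*, and *Mfap5* overlapped with both *Mfap2* and *Fbln1*.

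**Figure D1:**
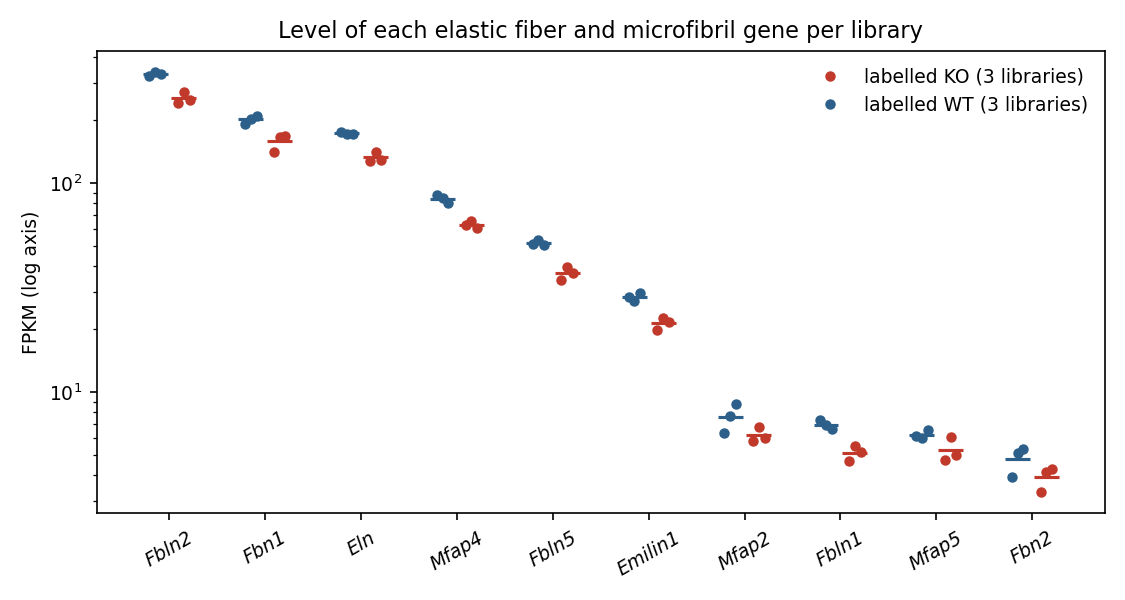
FPKM of each gene in each library on a log axis, with points for the 3 libraries of each label (WT blue, KO red) and a bar at their mean. *Fbln2*, *Fbn1* and *Eln* stand above 100 FPKM in every library, *Mfap4*, *Fbln5* and *Emilin1* lie between the tiers, and the last 4 genes stay under 9 FPKM.

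*Eln* (ENSMUSG00000029675, chromosome 5 from 134702593 to 134747323, minus strand) encodes tropoelastin, the soluble subunit of the elastic core. It had 1218, 1358 and 1232 CPM in the KO-labelled libraries and 1720, 1684 and 1691 CPM in the WT-labelled ones. The groups did not overlap, and the spread within the WT-labelled libraries was narrow, with a coefficient of variation of 1.11%. *Eln* fell by 0.42 on the log2 scale (standard error 0.05, 95% interval -0.53 to -0.31, adjusted p = 5.8e-04 from edgeR). The exact permutation test over the libraries, two-sided, reached p = 0.1, and 3 libraries against 3 cannot give less. The same exact value was obtained for each of the 8 genes whose CPM did not overlap, where 22.4% of all genes tested had every library labelled KO below every library labelled WT.

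The fibrillins are large glycoproteins that polymerize into the microfibrils themselves. *Fbn1* (ENSMUSG00000027204, chromosome 2 from 125300594 to 125507993, minus strand), the main fibrillin gene of adult tissue, had 2046, 2432 and 2442 CPM in the KO-labelled libraries and 2853, 3036 and 3113 CPM in the WT-labelled ones. All libraries labelled KO were below all labelled WT, and *Fbn1* fell by 0.38 (standard error 0.07, adjusted p = 0.00558 from edgeR). *Fbn2* (ENSMUSG00000024598, chromosome 18 from 58008623 to 58209926), the fibrillin of developing tissue, had 34.1, 43.4 and 44.6 CPM against 41.4, 54.2 and 56.6 CPM. The groups overlapped, since WT replicate 1 lay below 2 of the KO-labelled libraries, and the log2 fold change of -0.31 had an interval from -0.63 to 0.01 (adjusted p = 0.127 from edgeR). Without WT replicate 1 the value was -0.44 with an adjusted p of 0.0368, while without KO replicate 1 it was -0.20 with an adjusted p of 0.321, so the call of *Fbn2* turns on single libraries.

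The fibulins are linker proteins, and fibulin-5 binds tropoelastin and integrins and is needed for elastic fiber assembly. *Fbln5* (ENSMUSG00000021186, chromosome 12 from 101746565 to 101819055, minus strand) had 196, 231 and 215 CPM in the KO-labelled libraries and 301, 317 and 299 CPM in the WT-labelled ones. It fell by 0.51 (standard error 0.06, 95% interval -0.66 to -0.37, adjusted p = 7.5e-04 from edgeR), the largest fitted fall of the 10. *Fbln2* (ENSMUSG00000064080, chromosome 6 from 91212455 to 91272540), which encodes a fibulin that connects fibrillin with elastin and the basement membrane, had 2329, 2642 and 2410 CPM against 3225, 3379 and 3274 CPM. It fell by 0.42 (standard error 0.05, adjusted p = 8.3e-04). *Fbln1* (ENSMUSG00000006369, chromosome 15 from 85205949 to 85286535), whose product binds fibronectin and the elastic core, had far fewer transcripts, with 21.8, 25.7 and 24.1 CPM against 34.9, 33.3 and 31.8 CPM. It fell by 0.48 (standard error 0.09, adjusted p = 0.00391). None of the 3 fibulin genes had overlapping groups.

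*Emilin1* (ENSMUSG00000029163, chromosome 5 from 30913402 to 30921277) encodes a glycoprotein at the interface between elastin and microfibrils. Its level was 158, 183 and 175 CPM in the KO-labelled libraries and 234, 225 and 247 CPM in the WT-labelled ones. The groups were apart, and *Emilin1* fell by 0.45 (standard error 0.06, adjusted p = 0.00138 from edgeR). *Mfap4* (ENSMUSG00000042436, chromosome 11 from 61485431 to 61488900), a fibrinogen-related glycoprotein gene whose product binds tropoelastin and fibrillin, had 163, 172 and 159 CPM against 233, 227 and 213 CPM. It fell by 0.45 (standard error 0.05, adjusted p = 5.9e-04). An end of *Mfap4* overlaps *Mapk7* on the other strand by 89 bases.

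*Mfap2* and *Mfap5* encode MAGP-1 and MAGP-2, small glycoproteins bound to fibrillin microfibrils. *Mfap2* (ENSMUSG00000060572, chromosome 4 from 141010418 to 141015984) was measured at 9.50, 11.3 and 9.86 CPM in the KO-labelled libraries and 10.7, 12.97 and 14.8 CPM in the WT-labelled ones. KO replicate 2 was above WT replicate 1, so the groups overlapped, and the log2 fold change was -0.33 with an interval from -0.66 to 0.00 (adjusted p = 0.122 from edgeR). Without WT replicate 3 it was -0.22 (adjusted p = 0.327). *Mfap2* had the fewest counts of the 10 genes, 116 to 208 per library. *Mfap5* (ENSMUSG00000030116, chromosome 6 from 122505845 to 122529290) had 23.4, 30.5 and 24.9 CPM against 31.1, 30.6 and 33.6 CPM, so KO replicate 2 was nearly level with WT replicate 2. In CPM these groups were just apart, while in the deposited FPKM they overlapped, where 18.9% of all genes tested had every library labelled KO below every library labelled WT. The log2 fold change of *Mfap5* was -0.27 (interval -0.52 to -0.03, adjusted p = 0.0901), and without KO replicate 2 it was -0.39 with an adjusted p of 0.0151. The interval of each of these genes holds the median of -0.42 as well as values near 0, so neither a fall nor a difference from the other members was shown for them.

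**Figure D2:**
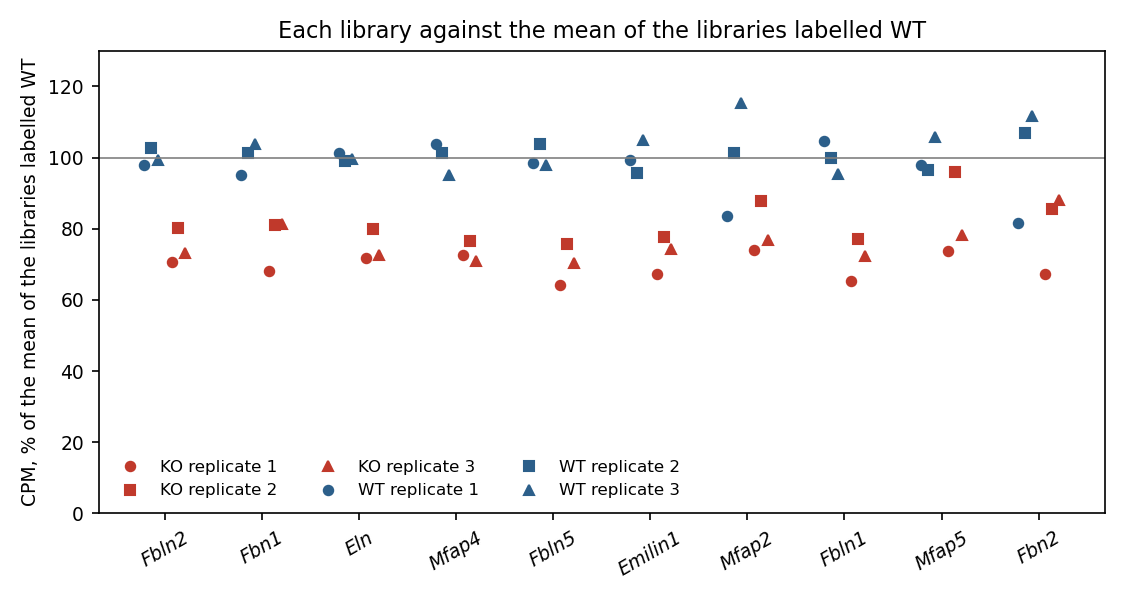
CPM of each gene in each library as a percent of the mean of the 3 libraries labelled WT, with color for the label and shape for the replicate number, on an axis from 0. KO replicate 1 (red circles) is the lowest library labelled KO in 9 of the 10 genes and KO replicate 2 (red squares) the highest in 8, and the labels overlap in *Mfap2* and *Fbn2*.

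Among the KO-labelled libraries, replicate 1 had the lowest CPM in 9 of the 10 genes (all but *Mfap4*), and replicate 2 had the highest in 8. The libraries labelled WT showed no such order, with replicates 1, 2 and 3 lowest in 4, 3 and 3 genes. The order was not particular to these genes, and its share over all genes was not counted. *Col1a1* had 11290, 13466 and 12688 CPM in KO replicates 1, 2 and 3, and *Bgn* had 3503, 3891 and 3609. The endothelial marker *Pecam1* had KO replicate 1 highest, with 720, 514 and 633 CPM. Without KO replicate 1 the median over the 10 genes was -0.38, and 7 genes were still called lower. Leaving out each of the 6 libraries in turn gave medians from -0.46 to -0.38 with 7 or 8 genes called lower each time.

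The fitted values of the 10 genes were close together. The 95% interval of every one of them held both the median of the 10 genes and the fibroblast marker median. The first of these medians comes from the same 10 values, and 2 of the intervals also held 0. How many of all genes have intervals that hold these medians was not counted. A ratio of 2 members within a library does not depend on how libraries are scaled, so 8 pairs of related members were compared as differences in log2 FPKM. In 6 of the 8 pairs the groups overlapped, including *Fbn1* against *Fbn2* (5.34 ± 0.07 in the KO-labelled libraries and 5.41 ± 0.18 in the WT-labelled ones, SD) and *Mfap2* against *Mfap5* (0.24 ± 0.07 and 0.28 ± 0.19). In the other 2 pairs *Fbln5* was lower relative to its partner in every library labelled KO. *Fbln2* minus *Fbln5* was 2.82, 2.77 and 2.75 in the KO-labelled libraries and 2.68, 2.67 and 2.71 in the WT-labelled ones, a difference of 0.09. *Eln* minus *Fbln5* was 1.90, 1.82 and 1.79 against 1.79, 1.68 and 1.77, also a difference of 0.09, which was 0.06 without KO replicate 1 or without WT replicate 2. Exact two-sided permutation tests gave p = 0.1 for both pairs (0.4 after Benjamini-Hochberg adjustment over the 8), and this design cannot go below 0.1.

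The make-up of the elastic fiber transcripts was close under both labels. *Fbln2*, *Fbn1* and *Eln* together made up 79.1%, 79.4% and 79.6% of the summed FPKM of the 10 genes in the KO-labelled libraries and 78.5%, 78.9% and 79.1% in the WT-labelled ones. *Eln* alone was 19.3% ± 0.51 and 19.3% ± 0.50 (SD, n = 3). Of the 10 shares, that of *Fbln5* was the one whose groups did not overlap, at 5.39% ± 0.09 against 5.76% ± 0.14 (exact permutation p = 0.1, 0.857 after adjustment over the 10). The summed FPKM was 647, 730 and 688 in the KO-labelled libraries and 886, 907 and 901 in the WT-labelled ones, so the totals of the 2 labels did not overlap.

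**Figure D3:**
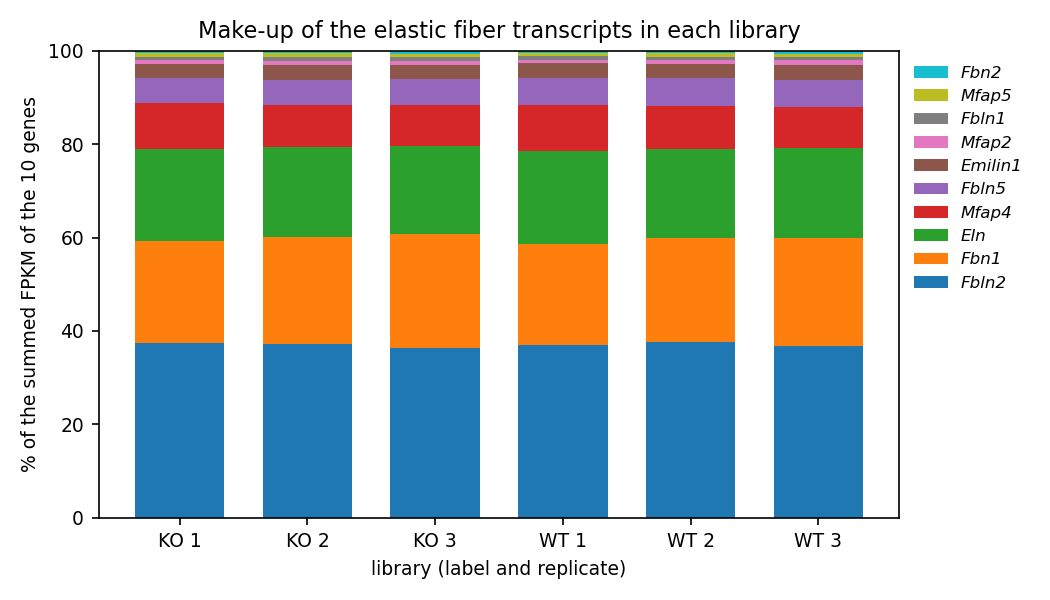
Share of each gene in the summed FPKM of the 10 genes, 1 stacked bar per library. The bars are nearly alike, with *Fbln2* at 36.3% to 37.6% and *Eln* at 18.8% to 19.9% of the sum in every library.

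Markers of several cell types were lower together with the elastic fiber genes, where 12.5% of all genes tested fell and 17.7% rose. The median log2 fold change was -0.41 for fibroblast markers (14 of 16 fell, 1 rose), -0.41 for mural and smooth muscle markers (6 of 10 fell, 1 rose), -0.41 for macrophage markers (6 of 10 fell, 1 rose), -0.41 for cardiomyocyte markers (7 of 10 fell) and -0.41 for epicardial and mesothelial markers (5 of 6 fell, 1 rose). These medians are all close to the -0.42 of the elastic fiber genes. Endothelial markers went the other way: all 10 rose, with a median of 2.64, and their summed level was 1447 to 2107 CPM by library totals in the KO-labelled libraries and 258 to 268 in the WT-labelled ones. Neutrophil markers had 2 of 3 tested genes higher but low sums, at 6.48 to 9.06 CPM in the KO-labelled libraries and 3.09 to 3.86 in the WT-labelled ones. The summed level of the 10 elastic fiber genes was 6298 to 7164 CPM by library totals against 8594 to 8863. In bulk RNA, fewer cells of a type and less RNA per cell cannot be told apart, and the part of the other cell types in the fall of the elastic fiber genes was not tested.

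With the libraries scaled so that the fibroblast markers have a median ratio of 1, the median of all genes moved to 0.39, and 0.305% of all genes were called lower and 60.1% higher. Under this scaling 6 of the 10 elastic fiber genes had fitted values below 0 and 4 above, and 0 passed in either direction, also at an unadjusted p under 0.05. *Eln* was at -0.01 (95% interval -0.12 to 0.09, adjusted p = 0.816 from edgeR) and *Fbln2* at -0.02 (-0.11 to 0.08). *Fbln5* kept the lowest value, -0.11 (-0.24 to 0.02, adjusted p = 0.133), and *Mfap5* had the highest, 0.13 (-0.08 to 0.34, adjusted p = 0.267). The intervals of *Eln* and *Fbln2* were the narrowest, and those of *Mfap2* (-0.24 to 0.39) and *Fbn2* (-0.20 to 0.38) the widest.

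**Figure D4:**
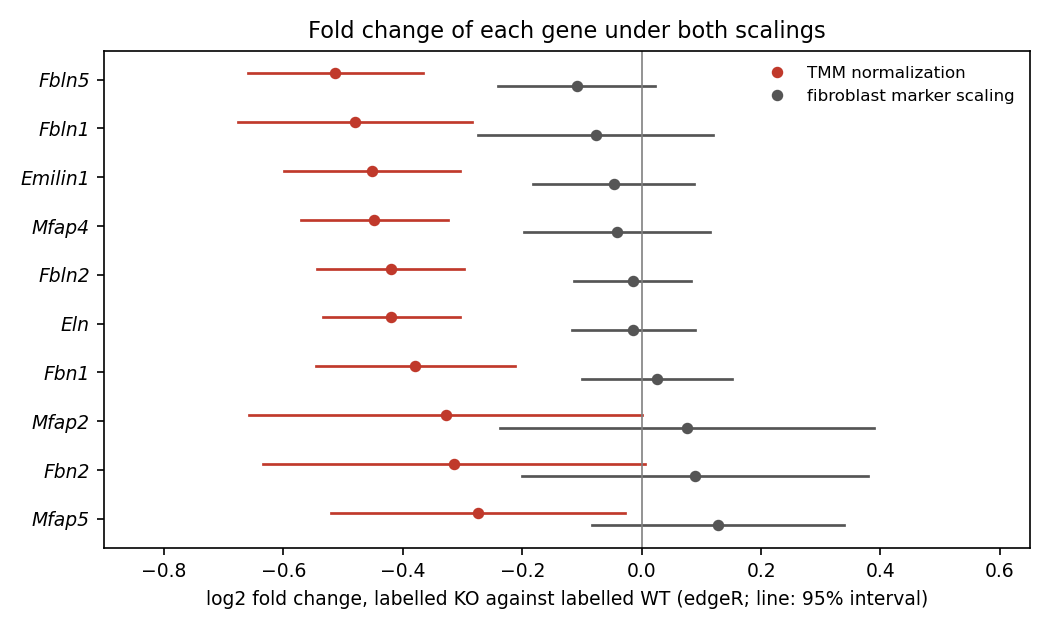
Log2 fold change of each gene with its 95% interval (line), under TMM normalization (red) and with the libraries scaled on fibroblast markers (grey). The red values run from -0.51 to -0.27, and the grey ones lie around 0 from -0.11 to 0.13 with every interval crossing 0.

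The partners of elastic fiber assembly were read from 4 lists. Of 22 tested genes for assembly partners, which hold the other fibulins, latent TGF-β binding proteins, fibronectin, proteoglycans and ADAMTS-like proteins, 14 fell and 1 rose, with a median of -0.38, where 12.5% of all genes tested fell and 17.7% rose. With the libraries scaled on fibroblast markers, 0 of the 22 were called lower and 2 higher, beside 0.305% and 60.1% of all genes. *Dcn*, among the 22, is also among the markers that set this scaling, so its value there is not independent of it. *Ltbp4*, whose product brings fibulin-5 to microfibrils, had 277, 335 and 305 CPM in the KO-labelled libraries and 414, 451 and 445 CPM in the WT-labelled ones (log2 fold change -0.51, adjusted p = 0.00133 from edgeR). *Bgn*, the gene of the proteoglycan biglycan, fell by 0.47 (adjusted p = 3.8e-04), and *Ltbp1* fell by 0.24 (adjusted p = 0.0145, but 0.0572 without WT replicate 2). The close relatives of *Fbln5* that are known as fibulin-3 and fibulin-4 also fell, with *Efemp1* at -0.43 (adjusted p = 0.0138 from edgeR) and *Efemp2* at -0.36 (adjusted p = 0.046). *Efemp1* lost its call without WT replicate 2, and *Efemp2* lost it without KO replicate 1 or 3 or WT replicate 1 or 2 (adjusted p from 0.115 to 0.142). The single riser was *Emilin2*, a relative of *Emilin1*, with 28.4, 22.4 and 27.1 CPM against 14.1, 15.3 and 16.4 CPM (log2 fold change 0.77, adjusted p = 0.00174). The difference between *Emilin1* and *Emilin2* in log2 FPKM, a pair chosen after the values were seen, was 1.42, 1.97 and 1.63 in the KO-labelled libraries and 2.99, 2.82 and 2.85 in the WT-labelled ones, without overlap (exact two-sided permutation p = 0.1, the smallest possible).

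All 5 genes of the cross-linking enzymes were tested, and 3 fell and 1 rose, where 12.5% of all genes tested fell and 17.7% rose. With the libraries scaled on fibroblast markers, which calls 0.305% of all genes lower and 60.1% higher, 0 were lower, and *Loxl4* was still called higher. *Lox*, which oxidizes lysines of tropoelastin and collagen, fell by 0.43 (adjusted p = 0.00649 from edgeR), *Loxl1*, which is tied to elastic fiber renewal, fell by 0.52 (adjusted p = 4.6e-04), and *Loxl2* fell by 0.39 (adjusted p = 7.4e-04). *Loxl4* rose, from 56.2, 57.5 and 53.4 CPM in the WT-labelled libraries to 175, 141 and 153 CPM in those labelled KO (log2 fold change 1.49, adjusted p = 1.4e-05).

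Of the 12 tested genes for proteases that cut elastic fibers and their inhibitors, 7 fell and 1 rose, beside the same 12.5% and 17.7% of all genes. Scaled on fibroblast markers, 0 of the 12 were lower and 4 higher (0.305% and 60.1% of all genes). *Ctss* and *Mmp12*, genes of elastin-cutting enzymes of macrophages, fell by 0.53 and 0.46 (adjusted p = 6.9e-04 and 0.00318 from edgeR). *Timp3*, an inhibitor gene, fell by 0.33, and *Ctsb*, a lysosomal protease gene, rose by 0.30 (adjusted p = 0.00336). *Mmp7* and *Elane* had 0 counts in every library. Of the 10 tested receptor genes, 5 fell and 2 rose, and the 2 that rose are a share near the 17.7% of all genes. Without WT replicate 3 the count lower was 3, and with the scaling on fibroblast markers 0 of the 10 were lower and 7 higher, where that scaling calls 0.305% of all genes lower and 60.1% higher. *Itgb3*, the integrin β3 subunit that pairs with αv and binds RGD sites of fibrillin and fibulin-5, had 294, 181 and 217 CPM in the KO-labelled libraries and 29.2, 26.7 and 27.4 CPM in the WT-labelled ones (log2 fold change 3.05, adjusted p = 1.2e-05 from edgeR). *Itgb5*, the gene of another partner of αv, fell by 0.45 (adjusted p = 4.8e-04), and *Itga9*, an integrin α subunit gene, fell by 0.44 (adjusted p = 0.00508). *Itgav*, the αv gene itself, fell by 0.22 (adjusted p = 0.0151 from edgeR, 0.0562 without WT replicate 3), but was called higher under the scaling on fibroblast markers, at 0.19 (adjusted p = 0.027). *Itgb1* fell by 0.20 (adjusted p = 0.0062 from edgeR) and was also called higher under that scaling, at 0.21 (adjusted p = 0.00503). *Neu1*, the sialidase of the elastin receptor complex, rose by 0.51 (adjusted p = 9.7e-04 from edgeR). *Glb1*, the gene of the elastin-binding part of that complex, fell by 0.19 (adjusted p = 0.0229), and its direction likewise turned under the scaling on fibroblast markers, to 0.22 (adjusted p = 0.0373). The call of *Glb1* was also lost in DESeq2 (adjusted p = 0.0717) and without KO replicate 2 or 3 or WT replicate 2 or 3 (0.0607 to 0.0769).

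**Figure D5:**
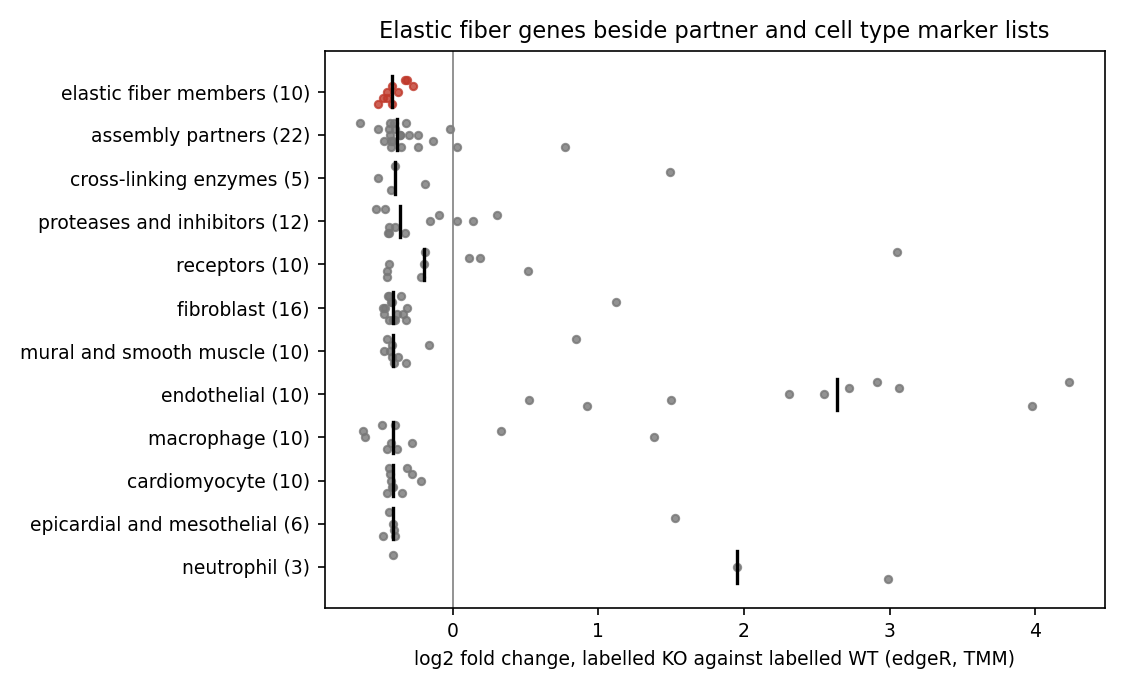
Log2 fold changes of the tested genes of each list (points) with the list's median (black bar), labelled KO against labelled WT, and the number of genes in parentheses. The 10 elastic fiber genes (red) lie between -0.51 and -0.27, beside medians near -0.41 for 5 of the marker lists and of 2.64 for endothelial markers.

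The 5 genes whose CPM over the 6 libraries was most like that of *Eln* were *Gpc3*, *Fxyd6*, *Nppa*, *Cxcl16* and *Gpr39* (Pearson r of at least 0.998 on the log2 scale). The 6 points share the split between the labels, and 714 of the 9815 genes ranked, or 7.27%, had an r above 0.95, so this is a description of that split.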

How the data were processed

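RNA-seq was analysed in 6 libraries of cardiac fibroblasts, 3 labelled KO and 3 labelled WT. The authors mapped paired-end reads to mm10 with HISAT2 (their processing notes also name GRCm38.p4 and edgeR) and deposited whole-number counts per gene without normalization, and FPKM values, which are those counts per length and per library total (implied lengths differed between libraries by a share of at most 4.4e-05). The counting tool, annotation release and strand setting are not given in the sources used here.

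The test on counts of the whole table was that of edgeR 4.0.16 under R 4.3.3, after filterByExpr (TMM, glmQLFit, glmQLFTest, Benjamini-Hochberg over 14084 genes), with all 6 libraries and no covariate. Totals ran from 12025403 to 15329427, and with 0 counts seen in the shallowest library a level of up to 3 counts (0.249 CPM) is possible, for counting error only. Shares and pairs of members used FPKM and exact permutation tests. The tests were tested on simulated data. Alternatives were other filters and scalings (among them on the 16 fibroblast marker genes), DESeq2 1.42.0, limma 3.58.1 on log2(FPKM + 1), a replicate block and each library left out. Where a symbol had 2 rows (*Ltbp4* and *Itgam*), the row with more counts was used. Named were all 10 members, *Kdm5b*, the 2 lowest and 2 highest called genes of each partner list and the 5 genes most like *Eln*, and *Efemp1*, *Efemp2*, *Dcn*, *Itgav*, *Itgb1*, *Glb1* and the marker genes given with values were added after their values were seen. The members, lists and tests were chosen with earlier results of these data known. The result of 1 marker list is not reported here.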

Additional observations from a re-analysis of the deposited data

How the results depend on the processing

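The count of elastic fiber genes called lower was 7 or 8 of 10, and the count called higher was 0, under every filter, under library size, upper quartile and DESeq2 scaling, in limma on log2(FPKM + 1), with the replicate block and without each library in turn. The exception was the scaling on fibroblast markers, with 0 called lower. Under it 43 genes of all tested were lower and 8464 higher, since the median of all genes goes from -0.02 to 0.39 with it. The members *Fbn1* (0.0254), *Fbn2* (0.0889), *Mfap2* (0.0758) and *Mfap5* (0.13) changed sign, as did *Kdm5b* (0.19). Of the partner genes given with fold changes, *Ltbp1* (0.17), *Loxl2* (0.0123), *Timp3* (0.0761), *Efemp2* (0.0427), *Itgav* (0.188), *Itgb1* (0.208) and *Glb1* (0.217) changed sign. *Itgav*, *Itgb1* and *Glb1* did so with a call as higher.

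Leaving out 1 library gave 1131 to 1614 genes lower among all tested, and the lowest, without KO replicate 3, compares with 1760 with all libraries. The upper quartile scaling gave 2210 genes higher and 2263 lower, in place of 2488 and 1760. Over the 13 alternatives other than the fibroblast marker scaling, the adjusted p of the 7 genes called lower ran from 2.1e-09 to 0.0256 and the log2 fold changes of all 10 genes stayed below 0. Of the other 3 genes, *Fbn2* passed with the replicate block (-0.31, adjusted p = 0.0142) and without WT replicate 1, *Mfap5* passed without KO replicate 2, and *Mfap2* passed in none of the 13 (lowest adjusted p 0.0504). Same-numbered libraries did not deviate together over all genes (r of 0.00, 0.00 and 0.04), which does not settle whether the numbers pair the samples. With the block the standard error was 0.06 in place of 0.14 for *Fbn2* and 0.04 in place of 0.07 for *Fbn1*, while for *Fbln1* it stayed at 0.09. The block gave 1591 genes lower and 2316 higher and 8 elastic fiber genes lower. *Kdm5b* passed with the replicate block (-0.21, adjusted p = 0.0271) and the upper quartile scaling (-0.26, adjusted p = 0.0324). In limma *Ltbp1* and *Efemp2* did not pass (adjusted p = 0.0605 and 0.0807), nor did *Efemp2* under library size (0.0621). The 56 pair and 70 share values from alternatives moved by less than the larger of the SDs of the 2 labels. The difference in the share of *Fbln5*, -0.372 percentage points from FPKM, was -0.24 from CPM, which is not per length. *Mfap2* had the fewest counts of the 10 genes, 116 to 208 per library, and a coefficient of variation of 15.9% in the WT-labelled libraries.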
